A study of Rattus norvegicus with 9 samples.

Results

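The 8 secreted inflammatory proteins encoded by the genes described here are the cytokines interleukin-1β (Il1b) and interleukin-6 (Il6), the CC chemokines Ccl2, Ccl3, Ccl4 and Ccl5, and the CXC chemokines Cxcl1 and Cxcl2. The genes were picked by Ensembl rat identifier, and all 8 had a row among the 32623 genes of the deposited count table. That table holds identifiers without symbols, so the symbols are those paired with the identifiers when the set was drawn up. RNA was sequenced from rat brain tissue after 1 of 3 treatments. These were Nano-patrol+NIR, a treatment that the labels name without further detail, rt-PA (recombinant tissue plasminogen activator, which dissolves clots by converting plasminogen to plasmin) and saline. The treatment was injected 4.5 h after a modelling step, which the labels do not describe and which all 3 groups went through, and tissue was taken 3 days after injection. Each group had 3 libraries, numbered 1 to 3 as in the sample titles. The count columns of the rt-PA libraries are headed uk, and whether they received another agent was not resolved. No strain, sex, age, brain region or number of animals is stated in the labels, and neither Nano-patrol alone, NIR alone nor brains without the modelling step were analysed here.

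After injury to the brain, microglia, astrocytes, endothelium and arriving leukocytes can release these proteins. Interleukin-1β is an early signal that induces other cytokines and chemokines, and interleukin-6 carries the signal on through gp130 and STAT3. Ccl2 draws in monocytes through Ccr2. Ccl3, Ccl4 and Ccl5 draw in monocytes and T cells, and Cxcl1 and Cxcl2 draw in neutrophils through Cxcr2. Transcription of many of them is induced by NF-kB. In whole tissue, fewer cells of a type and less RNA per cell cannot be told apart. Because the other rows carry no symbols, markers of microglia, leukocytes or brain regions could not be looked up, so neither the tissue label nor a change in cell makeup was checked.

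Library totals ran from 13059048 to 14992109 counts. Most of these genes were rare at that depth, with 0 to 51 counts per library everywhere except for Ccl2. Of the 8, 4 were abundant enough to be among the 15402 genes tested, namely Il1b, Ccl2, Ccl5 and Cxcl1. Ccl2 and Cxcl1 reached 10 counts only in rt-PA 1, rt-PA 2 and Nano-patrol+NIR 3, so both passed the filter on low counts through those libraries. Il6, Ccl3, Ccl4 and Cxcl2 did not pass it. One library of each group differed from the other 2 across the tested genes. Over log2 CPM (CPM is the read count relative to the scaled total of its library), r was 0.9851 between Nano-patrol+NIR 1 and 2 but 0.9401 and 0.9441 for Nano-patrol+NIR 3 with them. It was 0.9836 between rt-PA 1 and 2 but 0.913 and 0.8962 for rt-PA 3 with them, and 0.9903 between saline 2 and 3 but 0.9261 and 0.9307 for saline 1 with them. Within each group, every pair of libraries differed by more than sampling noise (the lowest chi-square over its degrees of freedom was 9.44), so each library was counted as 1 sample. Nothing in the labels ties the libraries to separate animals, and the spread that the p-values rest on may therefore be technical.

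The upstream sequences of Il6, Cxcl1, Cxcl2 and Il1b are shown as the regulatory stretch next to their starts. They are the 4 of the 8 genes for which the RefSeq table used here, on build GRCr8, gave such a sequence, and they were not chosen for their letters or counts. Each is the 250 bases before the annotated start, written 5′ to 3′ along the gene's strand (minus for all 4), with matches to the NF-kB consensus, searched on both strands, in capitals.
Il6, chr4:5894576-5894825: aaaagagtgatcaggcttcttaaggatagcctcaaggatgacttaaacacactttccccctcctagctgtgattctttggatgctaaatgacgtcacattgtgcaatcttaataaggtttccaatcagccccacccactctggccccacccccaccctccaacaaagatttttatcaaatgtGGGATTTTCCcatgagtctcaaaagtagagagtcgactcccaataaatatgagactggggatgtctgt
Cxcl1, chr14:17479322-17479571: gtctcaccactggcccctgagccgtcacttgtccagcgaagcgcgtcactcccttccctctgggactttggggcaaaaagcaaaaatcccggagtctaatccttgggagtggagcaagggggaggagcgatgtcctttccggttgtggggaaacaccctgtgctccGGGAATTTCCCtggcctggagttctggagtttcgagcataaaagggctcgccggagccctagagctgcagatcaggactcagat
Cxcl2, chr14:17467256-17467505: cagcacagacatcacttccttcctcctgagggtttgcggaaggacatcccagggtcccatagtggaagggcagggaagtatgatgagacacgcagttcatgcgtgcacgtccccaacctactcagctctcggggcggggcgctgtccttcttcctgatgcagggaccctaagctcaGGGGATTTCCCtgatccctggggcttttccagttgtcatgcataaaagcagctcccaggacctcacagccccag
Il1b, chr3:137036582-137036831: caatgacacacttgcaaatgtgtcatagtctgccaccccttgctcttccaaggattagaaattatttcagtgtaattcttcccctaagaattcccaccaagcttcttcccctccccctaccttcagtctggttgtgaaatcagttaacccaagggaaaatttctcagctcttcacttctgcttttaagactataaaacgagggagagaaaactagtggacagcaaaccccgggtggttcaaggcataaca
The NF-kB consensus lay 68 to 59 bases before the start in Il6. In Cxcl1 a pair of overlapping matches ran from base 84 to base 74, and in Cxcl2 such a pair ran from base 74 to base 64. No match was found in this window of Il1b. Of all 33469 RefSeq windows of the same length, 6.33% held the consensus. A cyclic AMP response element, TGACGTCA, lay 162 to 155 bases before the start of Il6 and in no other of the 4 windows, against 1.59% of all windows. The C/EBP pattern TTNNGNAA was found in Il6, Cxcl2 and Il1b, against 37.2% of all windows, and the AP-1 pattern TGANTCA in none of the 4, against 6.34%. These matches describe the letters only, binding was not measured, and nothing about the counts is drawn from them.

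**Figure D1:**
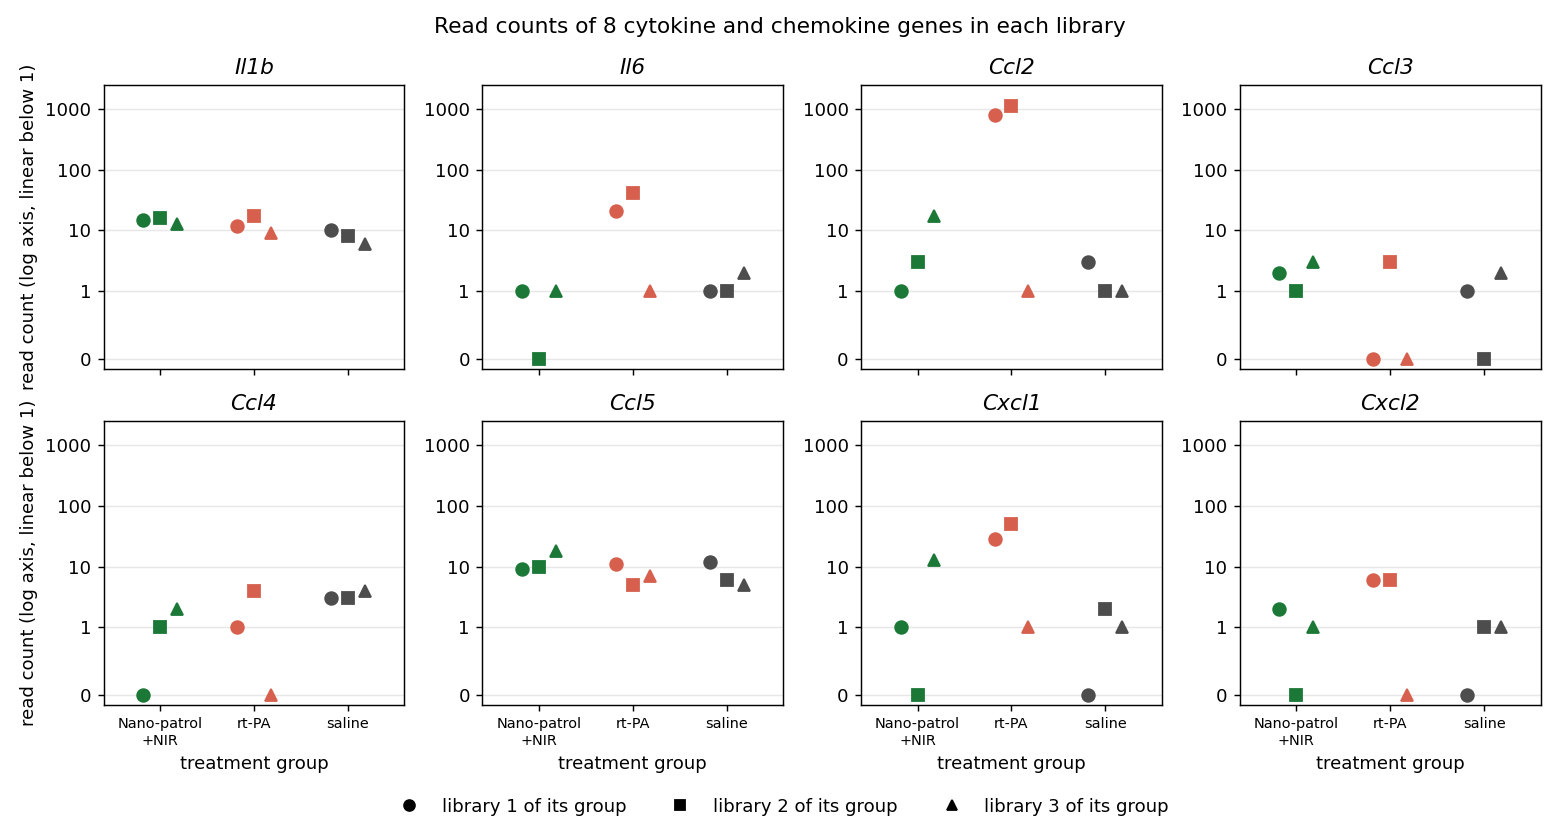
Read counts of the 8 genes (vertical log axis, linear below 1) in each library, with treatment groups along the horizontal axis and the symbol giving the library number. Ccl2 stands at 814 and 1114 counts in rt-PA 1 and rt-PA 2 and at 1 count in rt-PA 3, and Il6, Cxcl1 and Cxcl2 are also highest in rt-PA 1 and rt-PA 2.

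Ccl2 (ENSRNOG00000007159), the monocyte chemokine, had the highest counts of the set, and they came from a pair of rt-PA libraries. It had 1, 3 and 17 counts in Nano-patrol+NIR 1, 2 and 3, 814, 1114 and 1 in rt-PA 1, 2 and 3, and 3, 1 and 1 in saline 1, 2 and 3. rt-PA 1 and rt-PA 2 were high, Nano-patrol+NIR 3 was intermediate, rt-PA 3 was as low as the lowest saline libraries, and so the rt-PA group overlapped both other groups. The mean level was 0.4952 ± 0.6009 CPM in the Nano-patrol+NIR libraries, 49.25 ± 43.99 CPM in the rt-PA libraries and 0.1172 ± 0.07484 CPM in the saline libraries (SD, n = 3 each). Scaled by library totals, rt-PA 1 held 854 times as much Ccl2 as rt-PA 3 (exact 95% interval 153 to 33800) and rt-PA 2 held 1110 times as much (198 to 43800). All count ratios given here, those of summed counts included, are scaled by library totals in this way. Their intervals cover counting error only.

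Cxcl1 (ENSRNOG00000002802), a neutrophil chemokine, followed the same order at lower counts. It had 1, 0 and 13 counts in Nano-patrol+NIR 1, 2 and 3, 28, 51 and 1 in rt-PA 1, 2 and 3, and 0, 2 and 1 in saline 1, 2 and 3. As with Ccl2, rt-PA 1 and rt-PA 2 were highest, Nano-patrol+NIR 3 came next, and rt-PA 3 lay within the saline range. Its level averaged 0.3265 ± 0.5023 CPM over Nano-patrol+NIR, 2.038 ± 1.91 CPM over rt-PA and 0.07505 ± 0.07712 CPM over saline libraries (SD, n = 3 each). For the counts of 0 in Nano-patrol+NIR 2 and saline 1, a floor of 3 counts corresponds to 0.2275 and 0.2036 CPM. The exact 95% interval of a count of 0 reaches somewhat higher, to 3.689 counts. The ratio of rt-PA 1 to rt-PA 3 was 29.4 (exact 95% interval 4.86 to 1200) and that of rt-PA 2 to rt-PA 3 was 50.7 (8.7 to 2040).

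Il6 (ENSRNOG00000010278), the gp130 cytokine, was near 0 everywhere except in rt-PA 1 and rt-PA 2. It had 1, 0 and 1 counts in Nano-patrol+NIR 1, 2 and 3, 21, 41 and 1 in rt-PA 1, 2 and 3, and 1, 1 and 2 in saline 1, 2 and 3. Unlike Ccl2 and Cxcl1, Il6 was no higher in Nano-patrol+NIR 3 than in Nano-patrol+NIR 1. The ratio of rt-PA 1 to rt-PA 3 was 22 (exact 95% interval 3.54 to 911) and that of rt-PA 2 to rt-PA 3 was 40.8 (6.92 to 1650).

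Cxcl2 (ENSRNOG00000002792), the second neutrophil chemokine of the set, had 2, 0 and 1 counts in Nano-patrol+NIR 1, 2 and 3, 6, 6 and 0 in rt-PA 1, 2 and 3, and 0, 1 and 1 in saline 1, 2 and 3. Its highest counts again lay in rt-PA 1 and rt-PA 2, though at 6 each they were few. Summed over the libraries of a group it had 3 counts in Nano-patrol+NIR, 12 in rt-PA and 2 in saline. In the RefSeq gene order Cxcl1 and Cxcl2 are neighbours with 0 genes between them, and reads shared between such similar genes may have been split by the counting. How much of the Cxcl2 count could come from Cxcl1 was not tested.

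Il1b (ENSRNOG00000004649), the upstream cytokine, showed no such pair of high libraries. It had 15, 16 and 13 counts in Nano-patrol+NIR 1, 2 and 3, 12, 17 and 9 in rt-PA 1, 2 and 3, and 10, 8 and 6 in saline 1, 2 and 3. Each Nano-patrol+NIR library lay above each saline library, while the rt-PA libraries overlapped both. The level averaged 1.079 ± 0.1581 CPM over Nano-patrol+NIR, 0.9491 ± 0.3348 CPM over rt-PA and 0.5738 ± 0.1314 CPM over saline libraries (SD, n = 3 each).

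The remaining CC chemokines were few in every library. Ccl5 (ENSRNOG00000010906), which draws in T cells, had 9, 10 and 18 counts in Nano-patrol+NIR 1, 2 and 3, 11, 5 and 7 in rt-PA 1, 2 and 3, and 12, 6 and 5 in saline 1, 2 and 3, so that all groups overlapped. Nano-patrol+NIR 3 held the highest count, and in rt-PA 1 and rt-PA 2, where Ccl2 was high, Ccl5 had 11 and 5 counts, within its 5 to 12 counts in the saline libraries. Ccl3 (ENSRNOG00000011205) had 2, 1 and 3 counts in Nano-patrol+NIR 1, 2 and 3, 0, 3 and 0 in rt-PA 1, 2 and 3, and 1, 0 and 2 in saline 1, 2 and 3. Ccl4 (ENSRNOG00000011406) had 0, 1 and 2 counts in Nano-patrol+NIR 1, 2 and 3, 1, 4 and 0 in rt-PA 1, 2 and 3, and 3, 3 and 4 in saline 1, 2 and 3. The ligands Ccl3 and Ccl4 therefore stayed at 4 counts or fewer in all 9 libraries, rt-PA 1 and rt-PA 2 included. They too are neighbours with 0 genes between them, and reads that they share cannot be told apart.

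The rt-PA group was compared with saline to ask whether expression of these genes differed after rt-PA. Ccl2 and Cxcl1 had the largest estimated differences of the 4 tested members, yet neither passed the threshold of an adjusted p under 0.05. The log2 fold change was 8.58 for Ccl2 (SE 2.02, 95% interval 4.001 to 13.17, edgeR adjusted p = 0.11) and 4.64 for Cxcl1 (SE 1.63, 95% interval 0.94 to 8.35, edgeR adjusted p = 0.207). With 5 and 3 counts in all over the saline libraries, the size of these fitted folds depends on few reads. The ratio of summed counts, rt-PA over saline, was 400 for Ccl2 (1929 against 5 counts, exact 95% interval 171 to 1230) and 27.6 for Cxcl1 (80 against 3 counts, 9.12 to 137). Il1b differed by 0.71 (SE 0.42, 95% interval -0.25 to 1.67, edgeR adjusted p = 0.427) and Ccl5 by 0.06 (SE 0.53, 95% interval -1.13 to 1.26, edgeR adjusted p = 0.964). Thus 0 of 4 tested members were called by edgeR, where 0.00649% of all 15402 genes were. At an unadjusted p under 0.05 there were 2 of the 4, Ccl2 and Cxcl1, against 17% of all genes. DESeq2 called 1 of the 4, Ccl2 (log2 fold change 8.74, DESeq2 adjusted p = 0.000131), where it called 6.88% of all genes. Ccl2 and Cxcl1 were tested only through their counts in rt-PA 1, rt-PA 2 and Nano-patrol+NIR 3. The shares among the 4 follow partly from that, so they cannot show whether these genes exceed all genes.

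The edgeR calls in this comparison turned on rt-PA 3. Without that library Il6 also passed the filter, through its 21 and 41 counts in rt-PA 1 and rt-PA 2, so that Il6, Ccl2 and Cxcl1 were tested there because of libraries in which they were high. The number of members called in this fit follows partly from that, and 8.32% of 15672 genes were called higher in rt-PA. The genes called, all higher in rt-PA, were Ccl2 (log2 fold change 9.19, SE 0.82, edgeR adjusted p = 0.00116), Cxcl1 (5.24, SE 1.302, edgeR adjusted p = 0.038) and Il6 (4.53, SE 0.65, edgeR adjusted p = 0.00591). With all 9 libraries and no filter on low counts, Il6 differed by 3.96 (SE 1.14, edgeR adjusted p = 0.187). Leaving out any 1 of the other 8 libraries gave 0 calls among the members. Il6 passed the filter too where any 1 saline or Nano-patrol+NIR library was left out, with edgeR adjusted p from 0.177 to 0.355. When saline 1, rt-PA 3 and Nano-patrol+NIR 3 were all left out, edgeR called Ccl2, Cxcl1 and Il6 again, where 23.4% of 15309 genes were called higher. These libraries were left out because they differed most from their groups, so the spread that remains is too small, and so are the p-values.

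**Figure D2:**
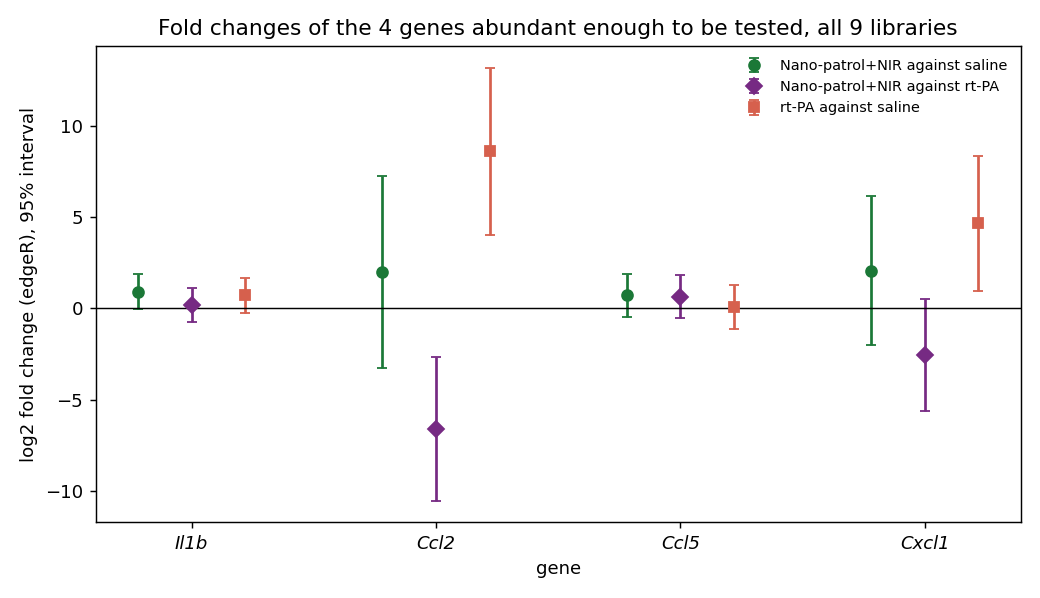
Log2 fold changes of the 4 tested members (vertical axis, edgeR on all 9 libraries) with 95% intervals, by gene and comparison. The intervals of Ccl2 span 4.001 to 13.17 for rt-PA against saline and -10.52 to -2.64 for Nano-patrol+NIR against rt-PA, far wider than those of Il1b and Ccl5.

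The comparison of Nano-patrol+NIR with saline used the same fit and the saline libraries that also served the rt-PA comparison. Of the tested members, Il1b had the smallest p, being higher in each Nano-patrol+NIR library than in any saline library. Its log2 fold change was 0.90 (SE 0.42, 95% interval -0.05 to 1.85, edgeR adjusted p = 0.887), and the ratio of summed counts was 1.91 (44 against 24 counts, exact 95% interval 1.14 to 3.28). It was the 1 of 4 tested members whose groups did not overlap, and 14.5% of all tested genes had groups that did not overlap. Ccl4, which was too rare to be tested, lay lower in each Nano-patrol+NIR library than in any saline library, with 3 against 10 counts in all and a ratio of 0.312 (exact 95% interval 0.0552 to 1.21). The 14.5% covers tested genes only, and no such share was computed for genes as rare as Ccl4. Ccl2 differed by 2.00 (SE 2.31, edgeR adjusted p = 1), Cxcl1 by 2.07 (SE 1.78, edgeR adjusted p = 1) and Ccl5 by 0.71 (SE 0.51, edgeR adjusted p = 1). The higher Ccl2 and Cxcl1 estimates came from Nano-patrol+NIR 3. Without it the log2 fold change was 0.31 for Ccl2 (edgeR adjusted p = 1) and -0.80 for Cxcl1 (edgeR adjusted p = 1). In this comparison 0 of 4 tested members were called by edgeR, where 0.00649% of all genes were, and 0 by DESeq2, where 0.857% were. At an unadjusted p under 0.05 the edgeR count was also 0, against 5.89% of all genes.

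Nano-patrol+NIR was then set directly against rt-PA, which asks whether these genes differed between the treatments. Ccl2 was lower in Nano-patrol+NIR by the largest estimate, a log2 fold change of -6.58 (SE 1.73, 95% interval -10.52 to -2.64, edgeR adjusted p = 0.208). Cxcl1 had a log2 fold change of -2.58 (SE 1.35, 95% interval -5.63 to 0.48, edgeR adjusted p = 0.436). Ratios of summed counts, Nano-patrol+NIR over rt-PA, were 0.0109 for Ccl2 (21 against 1929 counts, exact 95% interval 0.00676 to 0.0168), 0.176 for Cxcl1 (14 against 80 counts, 0.092 to 0.313) and 0.0319 for Il6 (2 against 63 counts, 0.00378 to 0.12). Il1b differed by 0.19 (SE 0.41, 95% interval -0.74 to 1.11, edgeR adjusted p = 0.873) and Ccl5 by 0.64 (SE 0.51, 95% interval -0.52 to 1.80, edgeR adjusted p = 0.613). edgeR called 0 of the 4 tested members and 0% of all genes, with 1 member, Ccl2, and 13.8% of all genes at an unadjusted p under 0.05. DESeq2 called 1 of the 4, Ccl2 (log2 fold change -6.66, DESeq2 adjusted p = 0.00656), where it called 4.07% of all genes. As in the comparison of rt-PA with saline, these shares follow partly from how Ccl2 and Cxcl1 passed the filter. With the replicate number as a block in edgeR, the Ccl2 log2 fold change was -5.82 (SE 2.53, unadjusted p = 0.0559, edgeR adjusted p = 0.421), no longer under an unadjusted 0.05.

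Here too the edgeR calls turned on rt-PA 3. Without it edgeR called Ccl2 (log2 fold change -7.19, SE 0.70, edgeR adjusted p = 0.00178) and Il6 (-5.39, SE 0.71, edgeR adjusted p = 0.00445), both lower in Nano-patrol+NIR, where 8.07% of 15672 genes were called lower. Both were tested there because of their counts in rt-PA 1 and rt-PA 2. With all 9 libraries and no filter on low counts, Il6 had a log2 fold change of -4.81 (SE 1.24, edgeR adjusted p = 0.242). Without rt-PA 3, Cxcl1 had a log2 fold change of -3.16 (SE 1.09, edgeR adjusted p = 0.0962). Without Nano-patrol+NIR 3, which held 13 of the 14 Cxcl1 counts of its group, the Cxcl1 log2 fold change was -5.49, and 0 members were called. Without rt-PA 2 it was -1.71 (edgeR adjusted p = 0.869), and over all 9 fits that left out 1 library it ran from -5.49 to -1.71. Without all 3 libraries that differed from their groups, Ccl2, Il6 and Cxcl1 were called, where 21.2% of 15309 genes were called lower.

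**Figure D3:**
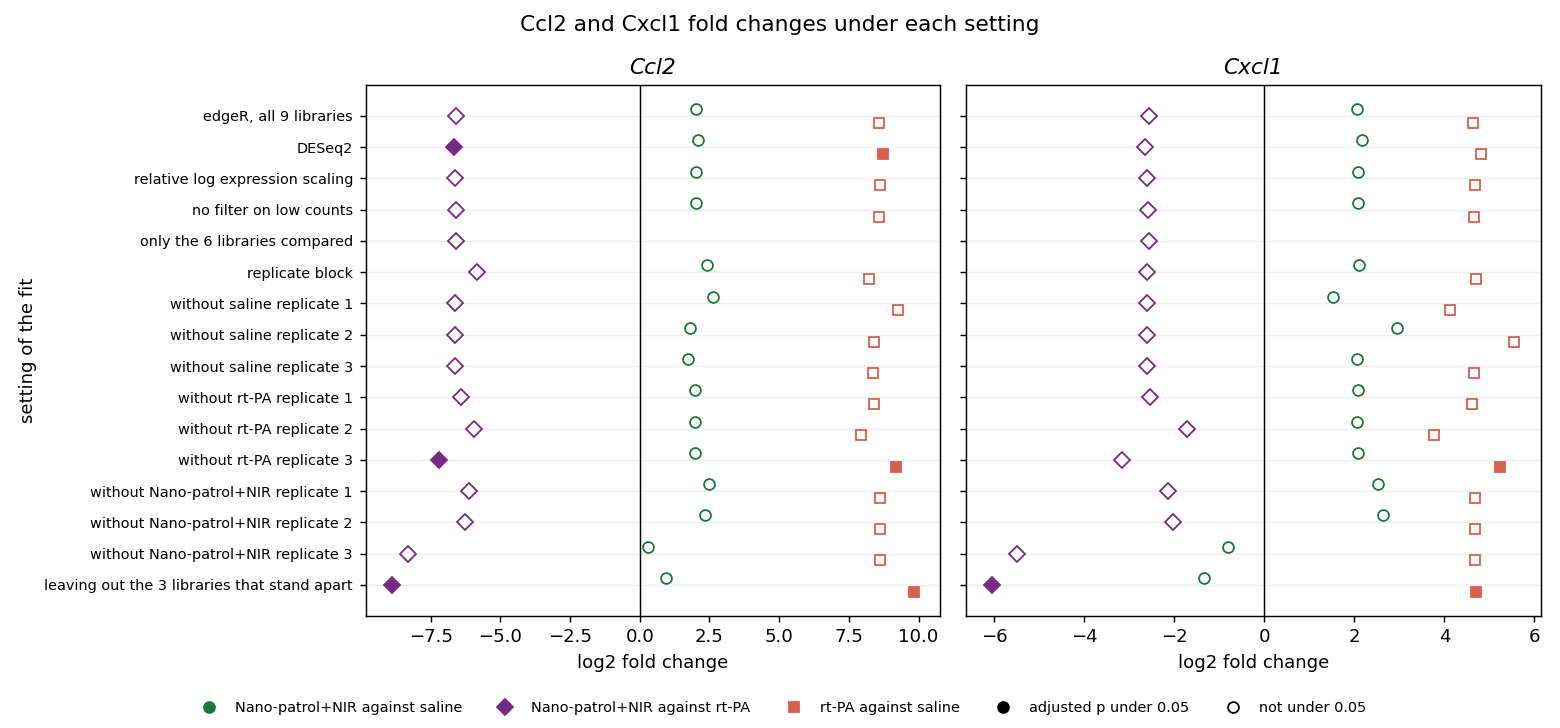
Log2 fold changes of Ccl2 and Cxcl1 (horizontal axis) under each setting of the fit (vertical axis), with filled symbols where the adjusted p was under 0.05. Fits of only the 6 libraries of a comparison with saline lack a point because these genes did not pass the filter there. Ccl2 keeps its sign throughout and is filled, in both comparisons that involve rt-PA, for DESeq2 and where rt-PA 3 is left out, while Cxcl1 in Nano-patrol+NIR against saline changes sign where Nano-patrol+NIR 3 is left out.

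The spread between libraries of a group set Ccl2 and Cxcl1 apart from Il1b and Ccl5. In rt-PA the highest and lowest libraries differed by 8.62 log2 CPM for Ccl2, which ranked 2 of 15402 from the widest, and by 4.22 for Cxcl1, which ranked 121. The median over all tested genes was 0.66 and 95% of genes lay at or under 2.61. Il1b and Ccl5 spanned 0.90 and 0.92 log2 CPM in that group. In Nano-patrol+NIR the range was 2.59 for Ccl2 and 2.85 for Cxcl1, ranks 307 and 241, beside a median of 0.47. In saline the ranges were 0.53 to 1.04, but with 0 to 3 counts per library the ranges of Ccl2 and Cxcl1 are held down there by the prior count of 2 and say nothing of their spread. The biological coefficient of variation was 1.2 for Ccl2 and 1.17 for Cxcl1, against 0.31 for Il1b, 0.37 for Ccl5 and a common value of 0.36. Ccl2 and Cxcl1 passed the filter only through rt-PA 1, rt-PA 2 and Nano-patrol+NIR 3. Their wide ranges in rt-PA and Nano-patrol+NIR, the ranks and the high variation follow partly from that. Because rt-PA 3 also differed from rt-PA 1 and rt-PA 2 over the other genes, the part that this library's general difference has in the Ccl2, Cxcl1 and Il6 values was not tested.

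**Figure D4:**
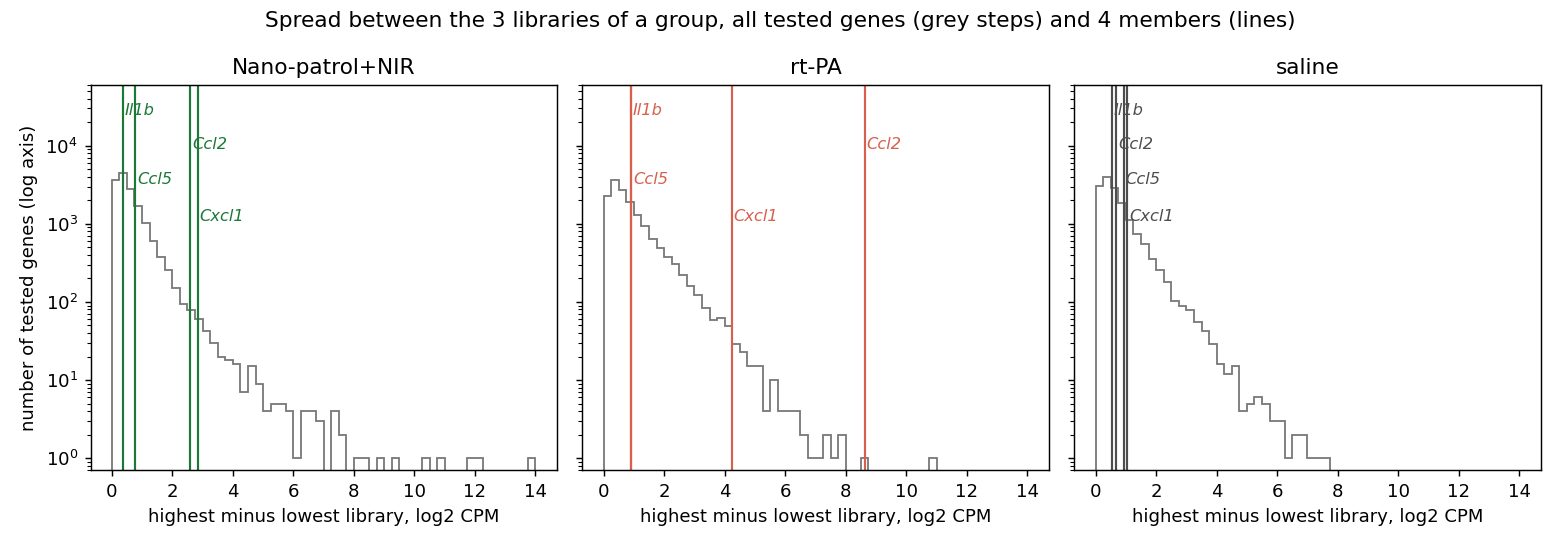
Number of tested genes (vertical log axis, grey steps) by the difference between the highest and lowest library of a group in log2 CPM (horizontal axis), with vertical lines for the 4 tested members. Ccl2 at 8.62 and Cxcl1 at 4.22 lie in the tail of the rt-PA panel. In the saline panel Ccl2 and Cxcl1 have 0 to 3 counts per library, too few to show their spread.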

How the data were processed

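RNA was extracted with Trizol, selected by its poly(A) tail and sequenced, per the labels' protocols. Per the submitters' processing notes, StringTie 1.3.1, HISAT2, Bowtie2 2.2.8 and fastp 0.18.0 were used, with no role given. The counter, genome build, annotation and strand setting were not given in the sources used here. Whole-number read counts were deposited by the authors per Ensembl gene and library, not normalized.

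Groups and replicate numbers came from the titles, and columns were matched through the sample descriptions. In R 4.3.3, edgeR 4.0.16 was run on all 9 libraries with filterByExpr (15402 genes kept), TMM scaling, 1 mean per group and the robust quasi-likelihood test, with Benjamini-Hochberg adjusted p under 0.05 over all tested genes. The standard error was taken as the fold change on the log2 scale over the root of its F statistic. CPM used TMM scaling, and log2 CPM a prior count of 2. Alternatives were DESeq2 1.42.0, relative log expression scaling, no filter, only the 6 libraries compared, the replicate number as a block and libraries left out. Scripts were tested on simulated counts. After subtracting group means, log2 CPM correlated at 0.113 to 0.278 in the 3 same-numbered pairs of Nano-patrol+NIR with rt-PA. The labels state no pairing, and the numbers may or may not pair those libraries. These correlations cannot tell, because differently numbered pairs were not correlated and library 3 differed from the rest in both groups. Same-numbered pairs with saline correlated at -0.362 to 0.228, and no pairing was taken. An exact permutation test of 3 libraries against 3 (two-sided) cannot go below p = 0.1, so none was used.

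The members, the lists and the libraries left out together were chosen with earlier results of these data known. All 8 members were named. The gene most like each member was to be named only if it had a symbol, and 13 further lists of 152 pathway and marker symbols were prepared. The RefSeq table (GRCr8, 47357 genes) pairs 0 genes with an Ensembl identifier, so neither these lists nor the like genes could be named or tested. Reads shared by similar, overlapping or antisense genes cannot be told apart in these counts. PCR duplicates are not independent molecules, so counting intervals are too narrow.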

Additional observations from a re-analysis of the deposited data

How the results depend on the processing

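Among the cytokine and chemokine genes, edgeR called 0 for rt-PA against saline, 0 for Nano-patrol+NIR against saline and 0 for Nano-patrol+NIR against rt-PA. DESeq2 called 1, 0 and 1. With a single library left out the counts ran over 0 to 3, 0 to 0 and 0 to 2 calls, and every call in these fits came without rt-PA 3. Leaving out saline 1, rt-PA 3 and Nano-patrol+NIR 3 together gave 3, 0 and 3. Relative log expression scaling and no filter on low counts gave 0 in each. Fits of only the 6 libraries compared gave 0 of 1, 0 of 2 and 0 of 4 tested members; Ccl2 and Cxcl1 were not among those tested against saline, so the first and second of these zeros say nothing about them. Over the 12 fold changes of the 4 tested members, 169 of 175 alternative values kept their direction. Those that changed sign were Cxcl1 for Nano-patrol+NIR against saline (-1.35 without the 3 libraries, -0.80 to 2.96 with 1 library left out), Ccl5 for rt-PA against saline (-0.31 to 0.51 with 1 left out) and Il1b for Nano-patrol+NIR against rt-PA (-0.0788 to 0.47 with 1 left out). The Cxcl1 sign changed only in fits without Nano-patrol+NIR 3, which held 13 of the 14 Cxcl1 counts of its group. Why that library was higher was not tested, nor was the cause of the Ccl5 and Il1b sign changes. The alternative values share libraries, and leaving out a library of the group not compared barely moved a fold change. The 169 of 175 is therefore no independent support for a direction. No scaling moved the median of all genes by over 0.1. With the replicate block edgeR called 0, 0 and 0 members, with a Ccl2 log2 fold change of 8.22 for rt-PA against saline, and changed no call. Counts of 4 or fewer for Ccl3 and Ccl4 and of 6 or fewer for Cxcl2 limit what can be detected at this depth.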
